A study of Homo sapiens with 8 samples.

Results

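The genes described here encode the subunits, assembly factors and regulators of the proteasome, the barrel-shaped protease that degrades proteins tagged with ubiquitin. They were chosen by name alone: every array probe set that carried exactly 1 gene symbol of the PSMA, PSMB, PSMC, PSMD, PSME, PSMF or PSMG families, with 1 probe set per gene, the one with the highest mean over all arrays. The choice gave 39 genes, measured by 46 probe sets, of 8226 genes named on the platform. Their mRNA was measured on Affymetrix U95Av2 arrays in 2 human prostate cancer cell lines, 2 arrays per group. The groups were PC3 cells with activated Notch1, PC3 cells with GFP, LNCaP cells with activated Notch1 and LNCaP cells with GFP. PC3 derives from a bone metastasis and grows without androgens, and LNCaP from a lymph node metastasis and responds to androgens. Activated Notch1 is a receptor form whose signal needs no ligand, and GFP alone was the control. The vector and the time after its delivery are not given for these arrays in the sources used here. The methods state a pair of chips per sample, so the p-values cover no more than array-to-array spread, and that spread may be technical.

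In the core particle, a ring of alpha subunits (PSMA genes) forms the gate on either side and beta subunits (PSMB genes) form the chamber in which proteins are cut. PSMB5, PSMB6 and PSMB7 carry the cutting sites, which the interferon-induced PSMB8, PSMB9 and PSMB10 replace in the immunoproteasome, the form known for producing peptides for antigen presentation. A regulatory cap recognises ubiquitin, unfolds the substrate with a ring of ATPases (PSMC genes) and feeds it into the core with the help of non-ATPase subunits (PSMD genes). Activators of the PSME family can bind the core in place of the cap, PSMF1 is an inhibitor of the core, and PSMG1, PSMD5, PSMD9 and PSMD10 assist assembly. In dividing cells, including cancer cells, the proteasome removes cell cycle regulators, and the intracellular part of Notch1 is itself among its substrates.

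By role, the 39 genes held 6 alpha subunits, 4 structural beta subunits, 3 catalytic beta subunits and 3 immunoproteasome subunits of the core. They also held 5 ATPases and 9 non-ATPase subunits of the cap, 3 cap assembly chaperones, 3 activators, the inhibitor PSMF1 and the core assembly chaperone PSMG1. PSMC3IP met the rule by its symbol but is a meiotic recombination factor that binds PSMC3, not a subunit, and is kept apart below. Of 47 genes listed by role, 38 were members. PSMA6 and PSME2 lay only on probe sets that named several genes and were not analysed here. PSMA8, PSMC5, PSMD7, PSMD13, PSMG2, PSMG3 and PSMG4 were named by no probe set. PSMB8, PSMC6, PSMD6, PSMD11 and PSMC3IP were read from probe sets of the types open to signal from related transcripts. All values are log2 expression, and log2 5 marks the dim range in which 31.9% to 37.6% of all probe sets on an array lay. Of the members, 35 were at or above it on all arrays, and PSMB8, PSME4, PSMF1 and PSMC3IP were below it on at least 1.

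HES1, the canonical Notch target, was read first as a measure of pathway activity. It had 10.51 and 10.61 in PC3 Notch1, against 7.92 and 8.08 in PC3 GFP (log2 difference 2.56, SE 0.12, adjusted p = 4.22e-07). In LNCaP it had 11.22 and 11.23 with Notch1, against 8.41 and 8.47 with GFP (2.78, SE 0.12, adjusted p = 3.12e-07). NOTCH1 itself was not analysed here. Arrays of a group had a correlation of 0.995 to 0.998 over the probe sets, although probe sets are no independent replicates. Of 6 listed LNCaP markers, 3 were measured (KLK3, KLK2 and TMPRSS2). Their mean was 8.24 to 8.41 in LNCaP Notch1 and 9.29 to 9.41 in LNCaP GFP, against 5.57 to 5.58 in PC3 Notch1 and 5.62 to 5.99 in PC3 GFP. The mean of 5 PC3 markers (VIM, CAV1, CD44, S100A2 and PLAU) was 10.74 to 10.76 in PC3 Notch1 and 9.94 to 10.11 in PC3 GFP, against 5.02 to 5.19 on the LNCaP arrays. Each list thus had the higher mean in its own line, although not every marker was dim in the other. KLK3 was at 7.18 to 7.93 on the PC3 arrays, against 8.50 to 9.38 on the LNCaP arrays. VIM was at 9.65 to 9.78 on the LNCaP arrays, against 12.49 to 12.68 on the PC3 arrays. Leukocytes use the immunoproteasome. The mean of 9 of 10 leukocyte markers was 5.24 to 5.33 in PC3 Notch1, 5.44 to 5.57 in PC3 GFP, 5.72 to 5.84 in LNCaP Notch1 and 5.64 to 5.69 in LNCaP GFP. The single markers were mixed. CD53 and LYZ were under log2 3 on all arrays, and ITGAM and CD2 ran from 4.49 to 5.91. PTPRC, CD79A, CD3E, CD14 and NKG7 ran higher, from 5.97 for PTPRC to 8.00 for NKG7. The 3' minus 5' difference of GAPDH, a sign of RNA integrity, was 0.36 to 0.40 in LNCaP Notch1 and 0.55 to 0.57 in LNCaP GFP, and -0.08 to 0.07 on the PC3 arrays. Its part in the LNCaP results below was not tested.

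The first comparison asked whether Notch1 activation changed the proteasome genes of PC3 cells. In PC3, none of the 39 members passed the test (limma, adjusted p under 0.05), where 4.19% of all 12558 probe sets rose and 2.01% fell (6.2% in all). At an unadjusted p under 0.05 there were 3 members (7.69%), PSMB4, PSMC4 and PSMD3, against 25.04% of all probe sets. The differences ran from -0.29 for PSMD3, a cap subunit, to 0.37 for PSMB4, a structural core subunit, around a median of 0.01, against -0.08 over all probe sets. A difference of less than 0.3 in either direction was found for 37 of the 39 members (94.9%), against 72.6% of all probe sets. These sets were unlike in level. The members' median on an array was 9.45 to 9.72, against 5.95 to 6.36 over all probe sets. The part of level in these shares was not tested. For 7 members both Notch1 arrays lay above both GFP arrays and for 7 below, shares to be set against 20.6% and 35.4% of all probe sets. Quantile normalization turned the members' median to -0.07, so its sign depended on the normalization.

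PSMB4 was the member closest to a call in PC3. It had 11.27 and 11.30 with Notch1, against 10.90 and 10.93 with GFP (log2 difference 0.37, SE 0.11, adjusted p = 0.0774). Its Notch1 arrays were both above its GFP arrays. With the replicate number as a block, adjusted p was 0.0420 and PSMB4 was the only member called higher, where that model called 7.32% of all probe sets higher and 4.68% lower (12% in all). The other PSMB4 probe set had 10.99 and 11.11 with Notch1, against 11.01 and 11.06 with GFP, a difference of 0.01.

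**Figure D1:**
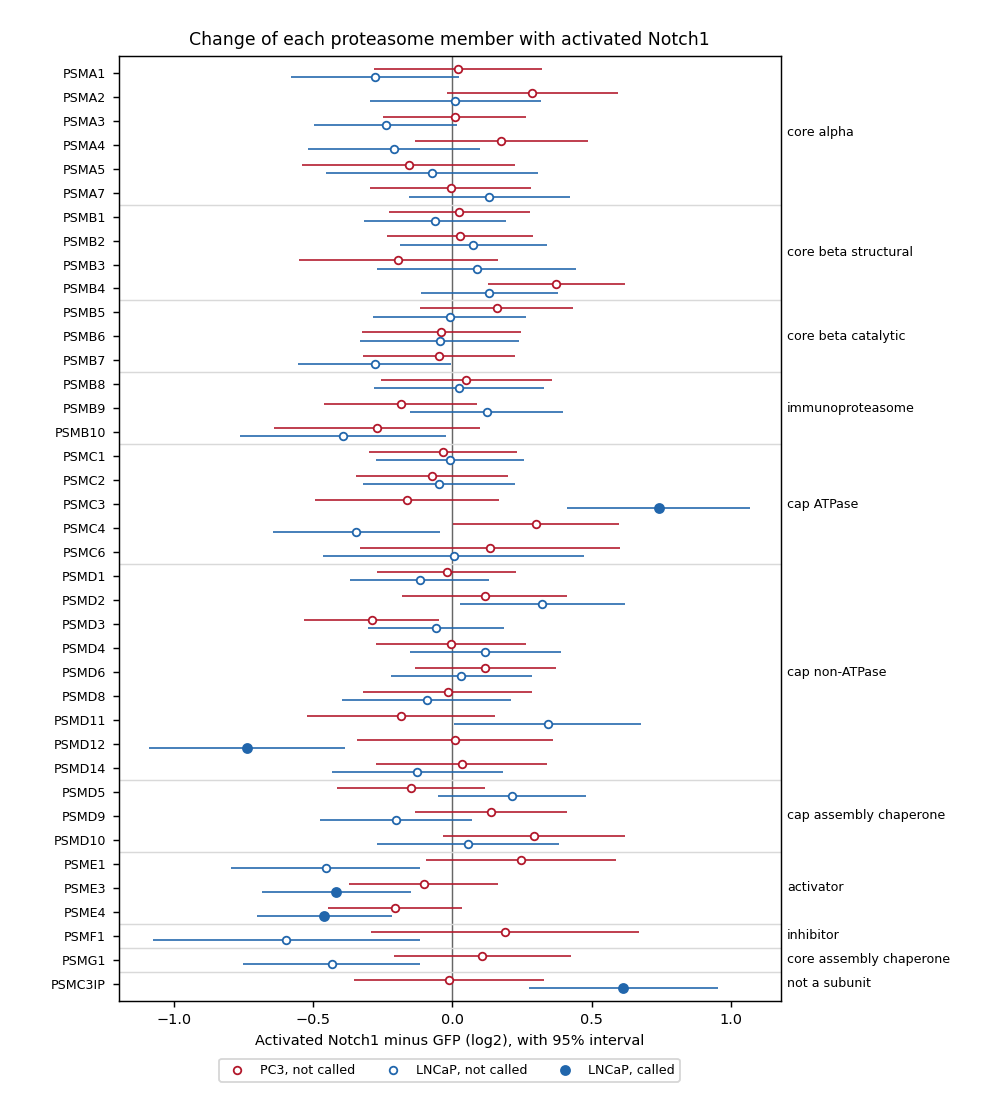
Difference between activated Notch1 and GFP for each of the 39 members (log2, horizontal axis), in PC3 (red) and LNCaP (blue), with 95% intervals and the roles at the right. Filled points passed the test at an adjusted p under 0.05. No PC3 point is filled, and the filled LNCaP points are PSMC3 and PSMC3IP to the right and PSMD12, PSME3 and PSME4 to the left.

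The same comparison in LNCaP gave 5 called members. PSMC3, an ATPase of the cap, rose 1.67-fold, and PSMC3IP rose 1.53-fold. PSMD12, a non-ATPase subunit of the cap, fell 1.67-fold, and the activators PSME4 and PSME3 fell 1.38-fold and 1.34-fold. The counts of 2 higher and 3 lower are to be set against 8.01% and 9.32% of all probe sets, and the 5 together (12.8%) against 17.3%. At an unadjusted p under 0.05 there were 13 members (33.3%), against 28.9% of all probe sets. Without PSMC3IP, 1 of 38 rose. The median over the members was -0.05, against 0.04 over all probe sets, and quantile normalization turned it to 0.01. The share of members within 0.3 was 69.2%, against 70.0% of all probe sets. Both Notch1 arrays lay above both GFP arrays for 9 members and below them for 14, where 32.9% and 24.1% of all probe sets did so. Leaving out 1 array gave 0 to 2 higher and 0 to 6 lower, and none was called without LNCaP GFP replicate 2. With each array centred on its median, and likewise after quantile normalization, 2 members rose and 5 fell. With the replicate number as a block, 3 rose (PSMC3, PSMD11 and PSMC3IP) and 6 fell (PSMB10, PSMD12, PSME3, PSME4, PSMF1 and PSMG1), where that model called 10.8% of all probe sets higher and 12.1% lower. The 9 together were 23.1% of the members, against 22.9% of all probe sets, so the called share lay below that of all probe sets without the block and close to it with the block. With values under log2 5 raised to log2 5, 0 members rose and 0 fell in LNCaP, and in a model of the 4 LNCaP arrays alone the PSME3 call was lost (adjusted p = 0.0586), while PSME1 (0.0469) and PSMF1 (0.0228) were called lower.

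PSMC3 had 10.42 and 10.26 in LNCaP Notch1, against 9.75 and 9.46 in LNCaP GFP (log2 difference 0.74, SE 0.15, adjusted p = 0.00603). Both Notch1 arrays stood above both GFP arrays, and the gap was wider than the spread within either pair. In PC3 it had 10.29 and 10.24 with Notch1, against 10.59 and 10.26 with GFP (-0.16, SE 0.15, adjusted p = 0.508). The LNCaP Notch1 level thus lay within the range of the PC3 arrays, and the LNCaP GFP level was the low one among the 4 groups. The call was lost without LNCaP GFP replicate 2 or without LNCaP Notch1 replicate 1, with adjusted p up to 0.0607.

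PSMD12, a lid subunit of the cap, had 5.55 and 5.41 in LNCaP Notch1, against 6.13 and 6.30 in LNCaP GFP (log2 difference -0.74, SE 0.16, adjusted p = 0.00876). In PC3 it had 7.97 and 8.01 with Notch1, against 7.74 and 8.23 with GFP (0.01, adjusted p = 0.978). The LNCaP groups did not overlap, and they lay near or under the array medians of that line (6.28 to 6.36). The PC3 Notch1 values lay between those of the PC3 GFP arrays. In LNCaP it was no longer called without GFP replicate 2 or without Notch1 replicate 2 of that line, with adjusted p up to 0.0783.

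**Figure D2:**
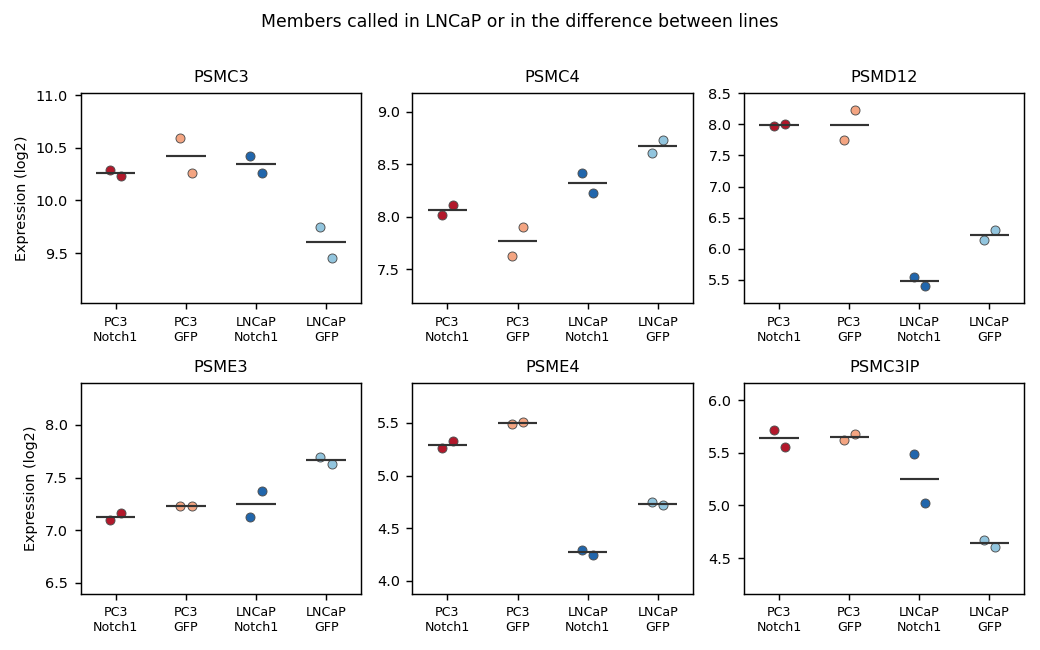
Log2 expression on every array (points) and group means (bars) for the 6 members called in LNCaP or in the difference between the lines. Vertical axes differ in range between panels and do not start at 0. PSMC3 in LNCaP Notch1 (10.26 and 10.42) reaches the PC3 levels, and PSMD12 in LNCaP Notch1 (5.41 and 5.55) is the lowest of its 4 groups.

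To describe the members outside the array values, their reference promoters were read from RefSeq (build GRCh38.p14), which matched 34 of the 39 members. The window ran from 250 bases before to 50 bases after the start site, and both strands were searched. The antioxidant response element TGACNNNGC, which the transcription factors NFE2L1 and NFE2L2 bind, was found in 12 of the 34 (35.3%) and in 16.1% of 27305 genes. CCAAT, bound by NF-Y, was found in 18 (52.9%), against 39.7% of all genes. The interferon-stimulated response element, searched as GAAA, any 2 bases and GAAA, was found in PSMA4, PSMB4, PSMB8, PSMB10 and PSME1 (14.7%), against 4.38% of all genes. These matches describe letters, not bound sites. The 200 bases before the start site, on the gene's strand, follow for the 4 subunits and activators called in LNCaP and for PSMB10, with the matched motif, on either strand, in capitals. PSMC3 (chr11:47426440-47426639, minus strand) and PSME3 (chr17:42833197-42833396, plus strand) show CCAAT, which reads ATTGG on the other strand. PSMD12 (chr17:67366578-67366777, minus strand) and PSME4 (chr2:53970994-53971193, minus strand) show TGACNNNGC, in reverse for PSME4, and PSMB10 (chr16:67936851-67937050, minus strand) shows the interferon element.
PSMC3: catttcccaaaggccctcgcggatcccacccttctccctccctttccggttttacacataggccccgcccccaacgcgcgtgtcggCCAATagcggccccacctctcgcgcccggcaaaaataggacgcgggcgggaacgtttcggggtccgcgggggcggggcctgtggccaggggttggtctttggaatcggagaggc
PSMD12: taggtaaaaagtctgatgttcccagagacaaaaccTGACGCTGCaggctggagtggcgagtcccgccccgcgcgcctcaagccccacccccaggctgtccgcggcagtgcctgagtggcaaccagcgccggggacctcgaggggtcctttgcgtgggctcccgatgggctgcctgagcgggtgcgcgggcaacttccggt
PSME3: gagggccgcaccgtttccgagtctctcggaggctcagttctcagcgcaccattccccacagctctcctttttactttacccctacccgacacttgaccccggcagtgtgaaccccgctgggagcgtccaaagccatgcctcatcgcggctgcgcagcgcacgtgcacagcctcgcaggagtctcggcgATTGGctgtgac
PSME4: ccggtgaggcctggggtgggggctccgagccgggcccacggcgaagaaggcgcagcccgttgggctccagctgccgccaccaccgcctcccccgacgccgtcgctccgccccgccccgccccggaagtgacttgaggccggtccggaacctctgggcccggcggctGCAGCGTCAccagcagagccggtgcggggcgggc
PSMB10: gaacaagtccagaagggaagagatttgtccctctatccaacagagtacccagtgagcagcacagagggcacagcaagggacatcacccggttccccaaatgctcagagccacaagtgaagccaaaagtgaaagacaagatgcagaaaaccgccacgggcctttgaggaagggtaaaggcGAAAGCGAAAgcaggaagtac
PSMC3 and PSME3 thus have CCAAT and no TGACNNNGC match in the window, and PSMD12 and PSME4 have TGACNNNGC. Most of the 12 members with TGACNNNGC were not called in LNCaP, and their differences there ran in both directions. A link between a motif and the direction of a change was not tested.

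All 3 measured activators had lower means in LNCaP Notch1 than in LNCaP GFP, and 2 of them were called. Over all probe sets, 9.32% were called lower in LNCaP. PSME3, which forms the nuclear activator ring, had 7.13 and 7.37 with Notch1, against 7.70 and 7.63 with GFP (-0.42, SE 0.12, adjusted p = 0.0378). PSME4, a single-chain activator known for its part in DNA repair and in spermatogenesis, had 4.30 and 4.25 with Notch1, against 4.75 and 4.72 with GFP (-0.46, SE 0.11, adjusted p = 0.0146). PSME4 lay under log2 5 on all 4 LNCaP arrays, so its difference was 0 once values below log2 5 were raised to it. PSME1, the alpha chain of the interferon-induced activator, had 8.64 and 8.36 with Notch1, against 8.96 and 8.94 with GFP (-0.46, SE 0.15, adjusted p = 0.0695). For all 3, both LNCaP Notch1 arrays lay below both GFP arrays, which held for 24.1% of all probe sets. The PSME3 call was lost without either PC3 Notch1 replicate, without either LNCaP GFP replicate and without LNCaP Notch1 replicate 1, with adjusted p up to 0.225. The PSME4 call was lost without any 1 of the 4 LNCaP arrays (up to 0.0880).

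In PC3 the activators did not share a direction. PSME1 had 9.21 and 9.18 with Notch1, against 8.74 and 9.15 with GFP (0.25, SE 0.15, adjusted p = 0.330). PSME3 had 7.09 and 7.16 with Notch1, against 7.23 on both GFP arrays (-0.10, SE 0.12, adjusted p = 0.617). PSME4 had 5.26 and 5.32 with Notch1, against 5.49 and 5.51 with GFP (-0.21, SE 0.11, adjusted p = 0.260). None of the 3 was called, where 6.2% of all probe sets were called in PC3.

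The inhibitor PSMF1 and the chaperone PSMG1, which starts the assembly of the alpha ring, were lower in LNCaP Notch1 by amounts that missed the threshold. PSMG1 had 7.69 and 7.47 with Notch1, against 7.92 and 8.10 with GFP (-0.43, SE 0.14, adjusted p = 0.0642, and 0.0467 with the replicate block). PSMF1 had 4.49 and 4.47 with Notch1, against 4.88 and 5.27 with GFP (-0.60, SE 0.22, adjusted p = 0.0903, and 0.0280 with the block). Its other probe set had 4.08 and 3.92 with Notch1, against 4.32 and 4.58 with GFP (-0.45, adjusted p = 0.0370), and both probe sets were mostly in the dim range. PSMC3IP, the recombination factor, had 5.48 and 5.02 in LNCaP Notch1, against 4.67 and 4.60 in LNCaP GFP (0.61, SE 0.15, adjusted p = 0.0192). Its Notch1 arrays stood furthest apart of all members in that group, at 0.46, and the call was lost without LNCaP Notch1 replicate 1 or without either LNCaP GFP replicate (adjusted p up to 0.144).

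None of the 13 constitutive core subunits was called in either line (limma, with PSMB4 alone in PC3 and PSMB7 alone in LNCaP at an unadjusted p under 0.05). Over all probe sets, 6.2% were called in PC3 and 17.3% in LNCaP. In LNCaP all 13 lay within 0.3, against 70.0% of all probe sets, from -0.28 for PSMB7 to 0.13 for PSMB4. The 95% intervals of the 13 differences lay between -0.58 and 0.44. In PC3, 12 of the 13 lay within 0.3, against 72.6% of all probe sets, and the intervals lay between -0.55 and 0.62. All probe sets had a lower median level than the members, as given above, and the part of level was not tested. The medians of the core were 0.02 in PC3 and -0.04 in LNCaP. The alpha subunits had a median of 0.01 in PC3 and -0.14 in LNCaP, and the structural beta subunits had 0.03 in PC3 and 0.08 in LNCaP.

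The catalytic subunits had these values on single arrays. PSMB5, the chymotrypsin-like subunit and main target of bortezomib, had 11.88 and 11.71 in PC3 Notch1, against 11.62 and 11.65 in PC3 GFP. In LNCaP it had 11.24 and 11.06 with Notch1, against 11.23 and 11.09 with GFP. The PC3 groups did not overlap and the LNCaP groups did, with differences of 0.16 in PC3 (adjusted p = 0.434) and -0.01 in LNCaP (adjusted p = 0.978).

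PSMB6, the caspase-like subunit, had 10.91 and 10.81 in PC3 Notch1, against 10.90 on both PC3 GFP arrays. In LNCaP it had 10.19 and 9.95 with Notch1, against 10.21 and 10.02 with GFP. The differences were -0.04 in both lines, and the groups overlapped in both. PSMB7, the trypsin-like subunit, had 10.27 and 10.39 in PC3 Notch1, against 10.27 and 10.49 in PC3 GFP. In LNCaP it had 9.77 and 9.82 with Notch1, against 10.01 and 10.13 with GFP (-0.28, adjusted p = 0.164). Its LNCaP groups did not overlap, and its other probe set gave -0.32 (adjusted p = 0.159).

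None of the 3 immunoproteasome subunits was called in either line, with PSMB10 in LNCaP alone at an unadjusted p under 0.05. The shares called over all probe sets were 6.2% in PC3 and 17.3% in LNCaP. PSMB8, the counterpart of PSMB5, had 5.18 and 4.96 in PC3 Notch1, against 5.06 and 4.98 in PC3 GFP, and 4.62 and 4.38 in LNCaP Notch1, against 4.59 and 4.37 in LNCaP GFP. Both pairs overlapped and most values were in the dim range. PSMB9, the counterpart of PSMB6, had 5.20 and 5.09 in PC3 Notch1, against 5.44 and 5.22 in PC3 GFP, and 5.98 and 5.93 in LNCaP Notch1, against 5.78 and 5.89 in LNCaP GFP. Its Notch1 arrays were low in PC3 and high in LNCaP, by -0.19 (adjusted p = 0.362) and 0.12 (adjusted p = 0.587), and the responses of the lines differed by 0.31 (adjusted p = 0.245).

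PSMB10, the counterpart of PSMB7, had 9.38 and 9.30 in PC3 Notch1, against 9.83 and 9.40 in PC3 GFP (-0.27, SE 0.17, adjusted p = 0.327). In LNCaP it had 8.44 and 8.24 with Notch1, against 8.90 and 8.57 with GFP (-0.39, SE 0.17, adjusted p = 0.149). Both Notch1 arrays were the lower ones in both lines, and replicate 1 was the higher array in all 4 groups. With the replicate block the LNCaP difference was called (adjusted p = 0.0353) and the PC3 difference was not (adjusted p = 0.139).

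**Figure D3:**
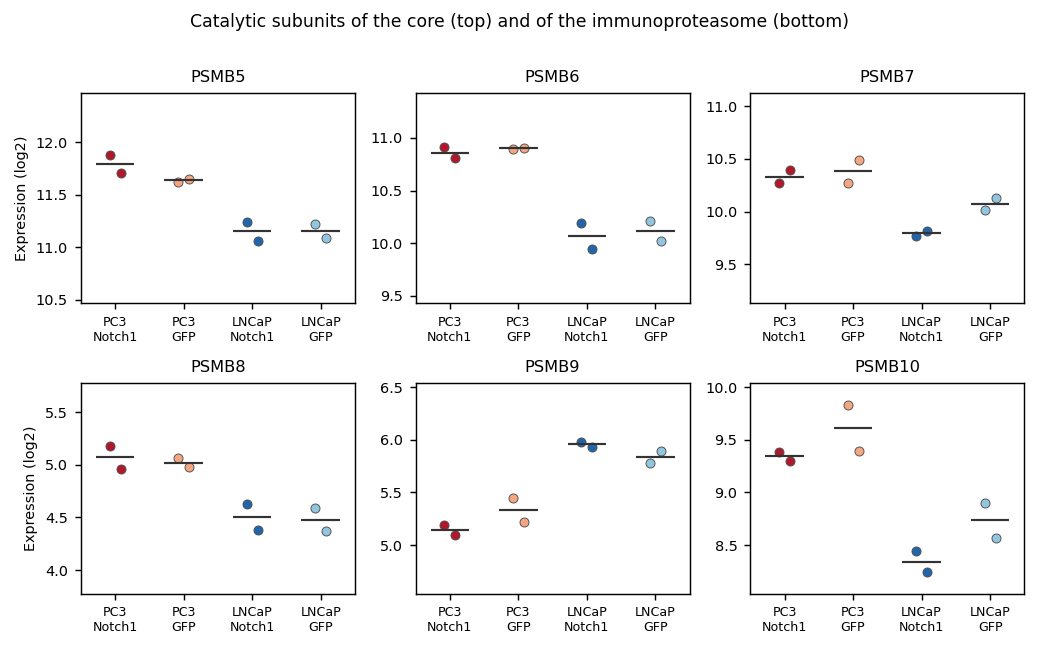
Log2 expression on every array (points) and group means (bars) for the 3 catalytic subunits of the constitutive core (top) and their immunoproteasome counterparts (bottom). Vertical axes differ in range and do not start at 0. Within a line the groups lie close together, with the widest gap for PSMB10, while LNCaP lies below PC3 for 5 of the 6 genes and above it for PSMB9.

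Of the 14 cap subunits, 2 were called in LNCaP (14.3%, against 17.3% of all probe sets). PSMC3 rose and PSMD12 fell, and the other 12 were not called. Among these, PSMD11 (0.34, adjusted p = 0.167), a lid subunit, and PSMD2 (0.32, adjusted p = 0.136), a scaffold of the base, had the highest values. PSMC4, an ATPase, had the lowest at -0.35 (adjusted p = 0.117). PSMD2 had 10.66 and 10.58 in LNCaP Notch1, against 10.35 and 10.25 in LNCaP GFP. PSMD11 had 9.72 and 9.48 in LNCaP Notch1, against 9.42 and 9.10 in LNCaP GFP, and passed only with the replicate block (adjusted p = 0.0407). Neither gene's LNCaP groups overlapped. The remaining cap subunits included PSMC1, PSMC2 and PSMC6 of the ATPase ring, which lay between -0.05 and 0.00, PSMD14, the cap's deubiquitinase, at -0.13, and PSMD4, a ubiquitin receptor, at 0.12. The medians of the cap were -0.01 in PC3 and -0.03 in LNCaP. The cap chaperones PSMD5, PSMD9 and PSMD10 lay between -0.20 and 0.21 in LNCaP and between -0.15 and 0.29 in PC3, with 0 called in either line and 0 at an unadjusted p under 0.05. In PC3, 6.2% of all probe sets were called.

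**Figure D4:**
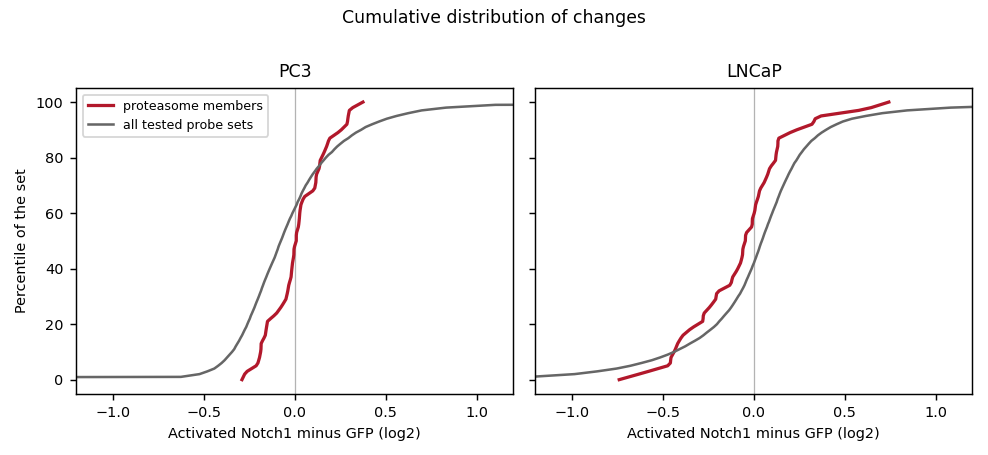
Cumulative distribution of the Notch1 minus GFP differences (log2, horizontal axis) of the 39 members (red) and of all 12558 tested probe sets (grey), in PC3 (left) and LNCaP (right), with the vertical axis giving the percentile of each set. The PC3 members run from -0.29 to 0.37, with quartiles of -0.09 and 0.13, against -0.23 and 0.11 for all probe sets. The LNCaP members run from -0.74 to 0.74, with quartiles of -0.26 and 0.08, against -0.14 and 0.20. Differences beyond 1.2 in either direction are outside the plotted range.

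The difference between the lines in their response, the LNCaP effect minus the PC3 effect, was called for 2 members, 1 higher and 1 lower, against 6.49% and 7.67% of all probe sets (14.2% in all). For PSMC3 it was 0.90 (SE 0.21, adjusted p = 0.0178). For PSMC4 it was -0.65 (SE 0.19, adjusted p = 0.0481). PSMC4 had 8.42 and 8.23 in LNCaP Notch1, against 8.61 and 8.73 in LNCaP GFP, and 8.02 and 8.12 in PC3 Notch1, against 7.63 and 7.91 in PC3 GFP. Its Notch1 arrays lay below the GFP arrays in LNCaP and above them in PC3, although neither line's difference was called. The next members were PSMD12 at -0.75 (adjusted p = 0.0509) and PSME1 at -0.70 (adjusted p = 0.0561), which missed the threshold. The median over the members was -0.10, against 0.12 over all probe sets. The PSMC3 call was lost without either PC3 Notch1 replicate, without LNCaP GFP replicate 2, without LNCaP Notch1 replicate 1 or with the floor at log2 5, with adjusted p up to 0.0943. The PSMC4 call was lost without any 1 array other than PC3 GFP replicate 2, with the floor and after quantile normalization (adjusted p = 0.0509), with adjusted p up to 0.153. With the replicate block, PSMC3, PSMD11 and PSMC3IP were called higher and PSMC4, PSMD12, PSME1 and PSMF1 lower, where 11.5% and 11.4% of all probe sets were (22.9% in all). With median centring 1 member was called higher and 3 lower, and with quantile normalization 2 higher and 1 lower, the lower one being PSMD12.

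The last comparison set the control cells of the lines side by side, and it gave the most calls. In LNCaP GFP, against PC3 GFP, 12 members were higher and 15 lower, where 40.3% of all probe sets were higher and 18.5% lower (58.8% in all). The median over all probe sets was 0.22, and -0.07 once each array was centred on its median. With centring, 6 members were higher and 19 lower, and with quantile normalization 9 were higher and 15 lower. The members' median was -0.04, and -0.32 with centring. No source states whether the arrays of the lines were normalized together. Without LNCaP GFP replicate 1, 7 were higher and 14 lower. Of the 27 calls, 16 were made under every alternative.

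PSMD12 differed most. It had 6.13 and 6.30 in LNCaP GFP, against 7.74 and 8.23 in PC3 GFP (-1.77, SE 0.16), a 3.40-fold lower level in LNCaP. PSMD5, a cap chaperone, had 6.94 and 6.93 in LNCaP GFP, against 8.39 and 8.23 in PC3 GFP (-1.37, SE 0.12). In the other direction, PSMD6, a lid subunit, had 10.66 and 10.74 in LNCaP GFP, against 9.44 and 9.51 in PC3 GFP (1.23, SE 0.11). None of these groups overlapped, and these 3 calls were made under every alternative.

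By role, the difference between lines ran in both directions. Of the cap subunits 5 were higher and 6 lower in LNCaP GFP, and of the constitutive core 4 were higher and 3 lower. Over all probe sets, 40.3% were higher and 18.5% lower. Within the ATPase ring, PSMC4 was higher (0.90) and PSMC3 lower (-0.82), and within the alpha ring PSMA1 (0.91) and PSMA4 (0.71) were higher. All 3 catalytic subunits had lower means in LNCaP GFP, with PSMB6 (-0.79) and PSMB5 (-0.48) called and PSMB7 (-0.31, adjusted p = 0.0513) just short of it. Of the immunoproteasome subunits, PSMB9 was higher (0.50) and PSMB8 (-0.54) and PSMB10 (-0.88) were lower in LNCaP GFP. With median centring PSMB9 was at 0.22 and no longer called, while PSMB7, at -0.59, was called lower with the other catalytic subunits. Of the 7 other probe sets of members, 6 had the same sign as the one used and 3 were called. Those of PSMB4 (0.10, adjusted p = 0.453) and PSMD8 (0.08, adjusted p = 0.609) were not called, although the ones used were. That of PSMD9 was called lower (-0.38, adjusted p = 0.0177), where the one used gave 0.12 and no call.

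**Figure D5:**
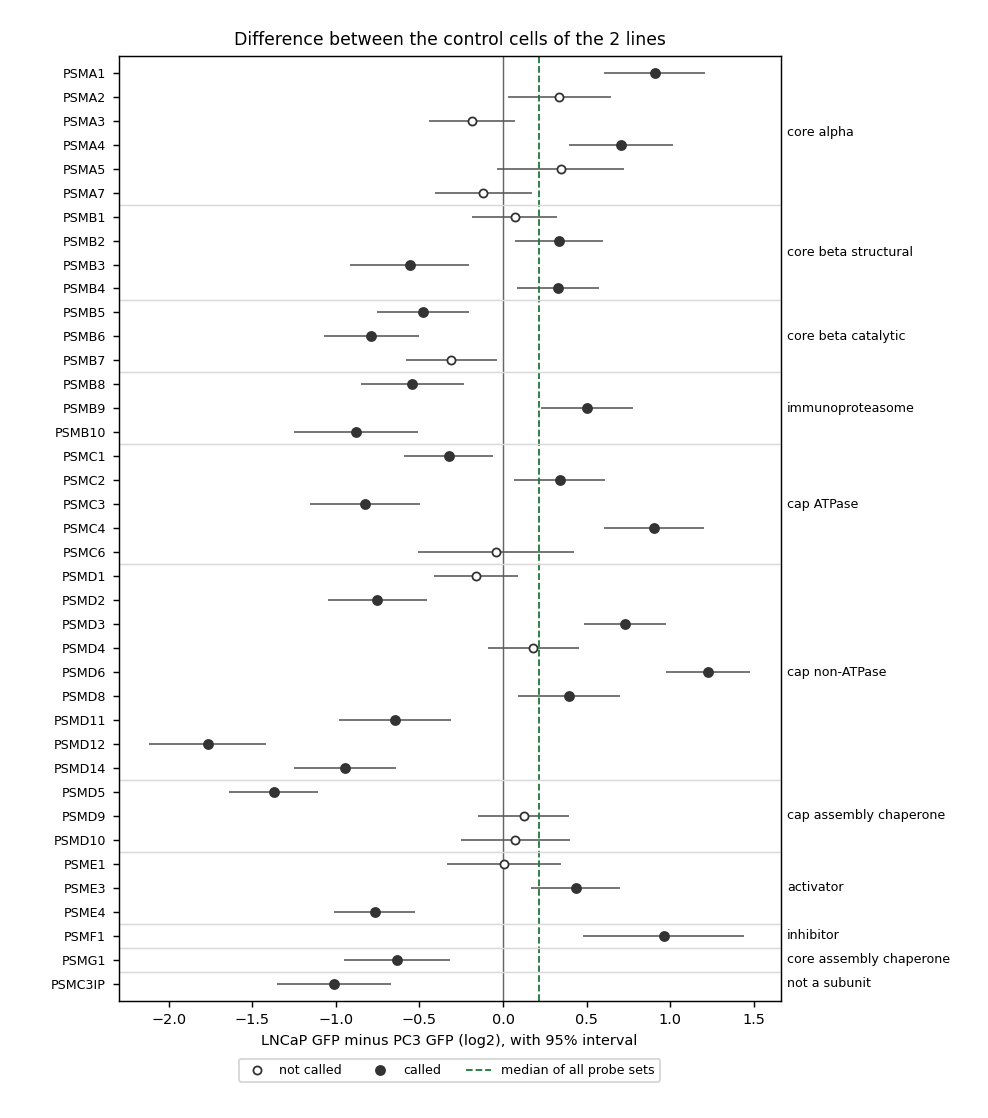
LNCaP GFP minus PC3 GFP for each of the 39 members (log2, horizontal axis) with 95% intervals, filled where called. The dashed line marks the median of all probe sets, 0.22. The members spread from -1.77 for PSMD12 to 1.23 for PSMD6, with 12 called to the right of 0 and 15 to the left.

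A list of other genes of the pathway, covering ubiquitin handling, proteasome-associated proteins and the transcription factors of proteasome genes, had 15 of 27 genes measured. In PC3 none was called (3 at an unadjusted p under 0.05) and the median was 0.10, against -0.08 over all probe sets, of which 6.2% were called. With the replicate block 2 rose in PC3, NFE2L2 and UBQLN2. In LNCaP 1 rose and none fell (6.67%, against 17.3% of all probe sets), with a median of -0.05, against 0.04. The gene that rose was NFE2L2, which encodes the antioxidant response factor named above. It had 9.25 and 9.07 in LNCaP Notch1, against 8.67 and 8.74 in LNCaP GFP (0.45, SE 0.13, adjusted p = 0.0356). In PC3 it had 9.28 and 9.35 with Notch1, against 8.70 and 8.97 with GFP (0.48, SE 0.13, adjusted p = 0.0590, and 0.0363 with the block). Its Notch1 arrays were above its GFP arrays in both lines, and the LNCaP call was lost with median centring and without any 1 array other than those of PC3 GFP (adjusted p up to 0.202). UBQLN2, a shuttle protein that brings ubiquitin-tagged proteins to the proteasome and is named after its values were seen, had 6.70 and 6.90 in PC3 Notch1, against 5.16 and 6.31 in PC3 GFP (1.07, SE 0.29, adjusted p = 0.0593, and 0.0127 with the block). In LNCaP it had 8.31 and 8.55 with Notch1, against 8.59 and 8.94 with GFP (-0.34, adjusted p = 0.518). Its PC3 GFP arrays were more than 1 log2 unit apart, and the PC3 groups did not overlap. The block also added USP14, a deubiquitinase of the cap, among the genes that fell in LNCaP (-0.47, adjusted p = 0.0778, and 0.0277 with the block), and its difference between the lines passed with the block as well (-0.77, adjusted p = 0.0505, and 0.0174 with the block).

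A list of interferon response and antigen processing genes, among which immunoproteasome subunits usually move, had 19 of 24 genes measured. In PC3, 2 rose and 1 fell (15.8%, against 6.2% of all probe sets), with a median of -0.12, against -0.08. With the replicate block TAP2, a subunit of the antigen peptide transporter, fell as well (-0.51, adjusted p = 0.0541, and 0.0155 with the block). CALR, an endoplasmic reticulum chaperone that helps to load antigen, had 9.96 and 10.02 in PC3 Notch1, against 9.44 and 9.46 in PC3 GFP (0.54, adjusted p = 0.0182). PDIA3, a partner of CALR in folding, had 9.71 and 9.61 in PC3 Notch1, against 9.06 and 9.25 in PC3 GFP (0.51, adjusted p = 0.0445). OAS1, an interferon-induced antiviral enzyme, had 6.27 and 6.12 in PC3 Notch1, against 6.72 and 7.14 in PC3 GFP (-0.73, adjusted p = 0.0171). In LNCaP, 1 rose and 1 fell (10.5%, against 17.3% of all probe sets), with a median of -0.03, against 0.04. With the block HLA-E, an antigen-presenting molecule, rose as well (0.42, adjusted p = 0.183, and 0.0386 with the block). ISG15, an interferon-induced ubiquitin-like protein, had 8.77 and 8.58 in LNCaP Notch1, against 9.36 and 9.14 in LNCaP GFP (-0.57, adjusted p = 0.0102). IFIT1, an interferon-induced RNA sensor named after its values were seen, had 4.77 and 4.92 in LNCaP Notch1, against 4.48 and 4.31 in LNCaP GFP (0.45, adjusted p = 0.0370), all in the dim range. The CALR and PDIA3 calls were lost after quantile normalization and when the LNCaP arrays were left out of the model. That of CALR was also lost without PC3 GFP replicate 1 or either PC3 Notch1 replicate (adjusted p up to 0.138), and that of PDIA3 without these or either LNCaP Notch1 replicate (up to 0.249) and with the floor at log2 5. The OAS1 call was lost without either PC3 Notch1 replicate and with the floor (up to 0.141). ISG15 was read from a probe set of a type open to signal from related transcripts, and with its other probe set the difference was -0.33 and not called (adjusted p = 0.143). Its call was also lost without LNCaP GFP replicate 1 or LNCaP Notch1 replicate 2 (up to 0.0905). The IFIT1 call was lost with median centring (0.0771), after quantile normalization (0.0669) and without any 1 of the 4 LNCaP arrays (up to 0.232), and its difference was 0 with the floor.

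The members' values on single arrays also followed the replicate number. Replicate 2 was above replicate 1 in all 4 groups for 8 members, 5 of them alpha subunits (PSMA1, PSMA2, PSMA4, PSMA5 and PSMA7), and below it in all 4 groups for 10 members, among them PSMC3, PSMD11 and PSMB10. The median distance between the arrays of a pair was 0.10 in PC3 Notch1, 0.21 in PC3 GFP, 0.14 in LNCaP Notch1 and 0.12 in LNCaP GFP. The PC3 GFP pair was thus the widest, and PSMF1 was the furthest apart there, at 0.74. What the number stands for is not given in the sources used here.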

How the data were processed

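Total RNA was labelled and hybridised to Affymetrix U95Av2 arrays. Per the methods, the authors summarised the raw files with RMA, a method for background correction, normalization between arrays and summary of each probe set, and tested them with limma. Neither version is given in the sources used here. The deposited table holds an unpooled log2 expression value for each probe set on each array, and it was used as deposited. Of 12625 probe sets, 67 controls were left out and 12558 tested. The platform annotation gave 10943 of these 1 symbol, 545 several and 1070 none. All 39 members' Entrez identifiers were found in RefSeq (GRCh38.p14), and 0 symbols differed.

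One model with a mean per group was fitted to all 8 arrays with limma 3.58.1 in R 4.3.3 (4 residual and 6.37 prior degrees of freedom). Contrasts were Notch1 minus GFP in each line, the difference of these effects (LNCaP minus PC3), and the same difference between the GFP groups. Tests were two-sided, p-values were Benjamini-Hochberg adjusted over all tested probe sets, and a call needed an adjusted p under 0.05. The script was tested on simulated data with independent noise on each array. That test does not cover the pattern shared by replicate numbers, described below. With 2 arrays per group, precision is limited by their number.

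Members, roles and lists were chosen with earlier results of these data known. The rule for named genes allowed any member. It gave array values for the catalytic, immunoproteasome and activator genes and the called members, named HES1, and named up to 4 called genes of each of the other lists with the largest change in either line. IFIT1, IFIT3, UBQLN2, TAP2, USP14 and HLA-E were named after their values were seen. Alternatives were median centring, quantile normalization, a filter at the 25th percentile, a floor at log2 5, 1 line per fit, an intensity trend, other choices of probe set, a replicate block and leaving out each array. Leaving out PSMC3IP was chosen after seeing the data.

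Replicate numbers recur across the groups. Between any 2 groups, replicate 1 departed from its group mean with a correlation of 0.124 to 0.545 over all probe sets and 0.315 to 0.787 over the members (6 pairs). The numbers were entered as a block in an alternative model, although no source says what they mark. The model without the block is the main one, so the main counts ignore this pairing. The block raised the probe sets called from 779 to 1507 in PC3 and from 2176 to 2871 in LNCaP. Block values stand beside results whose call they change.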

Additional observations from a re-analysis of the deposited data

Results flagged for a closer look

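These values stood out because the response to activated Notch1 differed between the lines (LNCaP effect minus PC3 effect, limma, n = 2 arrays per group). Both other lists gave calls as well, and CALR was the only gene here whose call was made under every alternative. PSMC3, a cap ATPase, differed by 0.90 (adjusted p = 0.0178), with 0.74 in LNCaP and -0.16 in PC3. PSMC4, another ATPase of the same ring, differed by -0.65 (adjusted p = 0.0481), with -0.35 in LNCaP and 0.30 in PC3. CALR, the antigen-loading chaperone, differed by -0.79 (adjusted p = 0.00825), with -0.25 in LNCaP and 0.54 in PC3. OAS1, the antiviral enzyme, differed by 0.84 (adjusted p = 0.0249), with 0.10 in LNCaP and -0.73 in PC3, and its LNCaP arrays were all under log2 5. The OAS1 call was lost in 7 of 16 alternatives, among them quantile normalization and leaving out either Notch1 replicate of either line (adjusted p up to 0.126). IFIT1, the RNA sensor, differed by 0.75 (adjusted p = 0.0231), with 0.45 in LNCaP and -0.30 in PC3, and its LNCaP arrays were also under log2 5. The IFIT1 call was lost in 4 of 16 (adjusted p up to 0.234), with the floor at log2 5 and without PC3 Notch1 replicate 2, LNCaP GFP replicate 2 or LNCaP Notch1 replicate 2. IFIT3, another interferon-induced gene of the same family, differed by 0.58 (adjusted p = 0.0388), with 0.31 in LNCaP and -0.27 in PC3. Its LNCaP arrays, at 4.27 to 4.63, were under log2 5 too, and its PC3 arrays were at 5.08 to 5.46. The IFIT3 call was lost in 11 of 16, including without any 1 array other than PC3 GFP replicate 2. UBQLN2, the shuttle protein, differed by -1.41 (adjusted p = 0.0478), with -0.34 in LNCaP and 1.07 in PC3. Its call was lost in 7 of 16 (up to 0.243), the same settings as for OAS1.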

How the results depend on the processing

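No call of a member in PC3, in LNCaP or in the difference between the lines was made under every alternative, while 16 of the 27 between the control cells were. In PC3, where 0 members rose and 0 fell, 1 rose with an intensity trend, with the replicate block and with the floor at log2 5. There 2 fell with the floor, PSMD3 and PSME4. In LNCaP, where 2 rose and 3 fell, 5 fell with an intensity trend, median centring or quantile normalization and 6 with the replicate block. With the floor 0 rose and 0 fell, and without PSMC3IP 1 rose. In the difference between the lines, 1 higher and 1 lower, 2 were higher after quantile normalization and 3 with the block. There 3 were lower with an intensity trend, averaged probe sets per gene, median centring or the 25th percentile filter, 4 with the block and 0 with the floor. Between the control cells, 6 members were higher with median centring, against 12. The floor also brought the prior degrees of freedom to 0.386, against 6.37, and turned the PSME4 difference between the lines to 0.21, against -0.25. With the floor that PSME4 difference was called higher (limma, adjusted p = 0.0313). The cause of the other changes was not tested.

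Leaving out 1 array at a time gave 0 to 1 members higher and 0 lower in PC3, 0 to 2 higher and 0 to 6 lower in LNCaP, 0 to 2 higher and 0 to 5 lower in the difference between the lines, and 7 to 12 higher and 11 to 15 lower between the control cells. The 7 came without LNCaP GFP replicate 1 and the 1 in PC3 without PC3 GFP replicate 2. Between the control cells the block gave 14 higher and 16 lower, and elsewhere it changed no call of a member that the text does not give. Signal limits PSMB8, PSME4, PSMF1 and PSMC3IP, which lay near or under log2 5. Signal was also low for PSMB9 (5.09 to 5.98) and for PSMD12 in LNCaP (5.41 to 6.30). Both lay near or under the median of all probe sets on the array, which was 5.95 to 6.36.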
